A study of Mus musculus with 80 samples.

Results

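Molecular chaperones were followed in the kidneys of male and female mice over 4 ages. Of the 16896 cDNA clones on the filters, 109 clones of 60 genes were taken because the platform annotation gave them exactly 1 symbol of a chaperone family: the Hsp70, Hsp90, Hsp110, small heat shock and Hsp60/Hsp10 proteins, the J proteins (Dnaj), the chaperonin subunits (Tcp1 and Cct), calreticulin and calnexin, the protein disulfide isomerases (Pdia), the Bag proteins, and St13 and Stip1. Hspg2 was left out, as were 2 clones with several symbols. Set A held 75 of the clones and 13 genes had clones on both filters. By compartment, the cytosol and nucleus held 6 Hsp70 and Hsp110 genes (11 clones), 1 Hsp90 gene (7), 13 J proteins (23), 9 cochaperones (11), 2 small heat shock proteins (2) and 8 subunits of the chaperonin CCT (21). The endoplasmic reticulum held 8 Hsp70, Hsp90 and J protein genes (14) and 6 lectin chaperone and disulfide isomerase genes (10), and the mitochondrion 7 genes (10). No clone with 1 symbol stood for Hspa1a, Hspa1b, Hspa2 or Hsp90ab1.

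Kidneys came from 40 mice of the inbred strain C57BL/6, all on freely available regular feed, and the study asked how transcripts differed with age and sex. Each of the 8 groups had 5 mice: males of 17 to 44, 174 to 194, 476 to 498 and 714 to 743 days, and females of 17 to 40, 169 to 194, 476 to 499 and 704 to 733 days. The age groups are called 17 to 44, 169 to 194, 476 to 499 and 704 to 743 days here, and the youngest mixed 5 mice of 17 to 21 days with 5 mice of 33 to 44 days. For 1 male of 714 days the description names another mouse than the title, and its sex and age fields were followed. Each mouse was hybridised to 2 filters with radioactively labelled cDNA, and a value is a normalised z score, the distance of a spot from its array's mean in array SDs. Differences are therefore in array SDs, with no reading as a fold. Whole kidney RNA was measured, so fewer cells of a type and less RNA per cell cannot be told apart.

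Arrays of one set correlated with the others at 0.891 to 0.976. Proximal tubule markers, the test of the tissue label, were measured for 4 of 8 genes, and 3 of their 5 clones lay in the brightest 25%. Of the other kidney markers, those of the loop and distal tubule were measured for 1 of 4 genes (0 of 4 clones in the brightest 25% and 1 in the dimmest) and those of podocytes for 1 of 3 genes (0 of 1 clone). The collecting duct markers had no clone, nor had those of skeletal muscle and adipose tissue. Liver markers were measured for 3 of 3 genes (2 of 3 clones in the brightest 25%), adrenal markers for 1 of 3 genes (1 of 1 clone), blood for 1 of 3 (2 of 12 clones) and immune cells for 3 of 4 (1 of 3 clones). The part of other tissues in the results was not tested. Titles carry serial numbers that fall into 5 rounds, with 1 mouse of either sex at each age in every round. Residuals of 2 mice of one round correlated on average at 0.145 in set A and 0.197 in set B, against -0.0612 and -0.0702 between rounds.

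Chaperones bind unfolded or partly folded proteins and keep them from aggregating. Hsp70 proteins work in cycles of ATP hydrolysis that J proteins start and that nucleotide exchange factors such as Hsp110 and Bag proteins reset, Hsp90 takes over client proteins through the adaptor Stip1, and the ring-shaped chaperonins enclose their substrates. In the endoplasmic reticulum, calnexin and calreticulin hold glycoproteins while disulfide isomerases pair their cysteines. Heat shock factor 1 drives many cytosolic and mitochondrial chaperone genes through heat shock elements, and the unfolded protein response drives those of the endoplasmic reticulum through ER stress elements.

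These control elements can be read in the promoters of the genes measured. Promoter windows of 300 bases around transcript starts (RefSeq, GRCm38.p6) were found for 50 of the 60 genes. Hspa8, Hsp90aa1, Hspa9, Cct4 and St13 were among the genes without a window, so their promoters were not searched. Both strands were searched. The 3-unit heat shock element, GAANNTTCNNGAA or TTCNNGAANNTTC, occurred in 4 of 50 chaperone genes (8%), Dnajb6, Hspd1, Hspe1 and Hsph1, against 0.662% of 27025 genes with a window. The 2-unit element, GAANNTTC or TTCNNGAA, which every 3-unit element contains, occurred in 13 of 50 (26%), against 17% of all genes. The ER stress element, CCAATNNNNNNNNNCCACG, occurred in 6 of 50 (12%), Calr, Canx, Dnajc3, Hsp90b1, Hspa5 and Pdia6, against 0.137% of all genes. A match is a run of letters, not a shown binding site. Hspd1 and Hspe1, which encode the mitochondrial chaperonin Hsp60 and its lid Hsp10, lie head to head, and their windows share 285 bases (chr1:55087898-55088182). The heat shock elements of Hspe1 lie in this shared stretch, so the same site is counted for both genes. The windows of Hspe1 (chr1:55087898-55088197, plus strand), Hspa5 (chr2:34771840-34772139, plus strand) and Hsp90b1 (chr10:86705395-86705694, minus strand) are shown because their genes form partner pairs that are compared below across mice. Capitals mark 3 overlapping 2-unit heat shock elements in Hspe1, 1 ER stress element in Hspa5 and 2 in Hsp90b1, the second of them on the other strand. Each is written 5′ to 3′ on the gene's strand.
Hspe1: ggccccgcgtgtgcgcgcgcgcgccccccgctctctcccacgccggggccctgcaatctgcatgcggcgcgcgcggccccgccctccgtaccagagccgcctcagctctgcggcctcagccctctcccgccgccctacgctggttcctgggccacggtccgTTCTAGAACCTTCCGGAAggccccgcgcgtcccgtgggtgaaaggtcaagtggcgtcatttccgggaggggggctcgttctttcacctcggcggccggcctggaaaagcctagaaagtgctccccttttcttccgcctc
Hspa5: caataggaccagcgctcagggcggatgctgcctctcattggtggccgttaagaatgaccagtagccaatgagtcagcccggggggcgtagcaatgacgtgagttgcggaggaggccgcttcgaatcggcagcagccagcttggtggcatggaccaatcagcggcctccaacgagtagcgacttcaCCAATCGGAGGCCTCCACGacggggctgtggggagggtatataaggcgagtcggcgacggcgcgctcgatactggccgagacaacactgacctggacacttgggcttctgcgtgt
Hsp90b1: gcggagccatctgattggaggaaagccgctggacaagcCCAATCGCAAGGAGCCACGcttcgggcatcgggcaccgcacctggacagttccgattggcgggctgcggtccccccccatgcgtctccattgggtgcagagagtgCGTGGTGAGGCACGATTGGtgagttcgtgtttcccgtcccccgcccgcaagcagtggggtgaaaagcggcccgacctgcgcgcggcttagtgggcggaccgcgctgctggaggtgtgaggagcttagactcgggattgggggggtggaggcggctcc

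None of the 109 chaperone clones passed in any of the 9 comparisons of age and sex (limma, adjusted p under 0.05 over all clones of both filters). The lowest adjusted p of a chaperone clone was 0.651, for Hspa8 between the sexes. Among all 16896 clones, 18 (0.107%) passed between males and females and 0 (0%) in each of the other comparisons. At an unadjusted p under 0.05, 5 chaperone clones (4.59%) had an age slope, against 5.2% of all clones, and 5 (4.59%) differed between males and females, against 4.48%. The count was 4 (3.67%) for 33 to 44 minus 17 to 21 days, against 4.3% of all clones. It was 9 (8.26%) for 169 to 194 minus 17 to 44 days, against 5.08%, and 4 (3.67%) for 476 to 499 minus 169 to 194 days, against 1.23%. For 704 to 743 minus 169 to 194 days it was 9 (8.26%), against 2.36%, and for any difference among the 4 ages 9 (8.26%), against 3.39%. It was 1 (0.917%) for the male minus the female age slope, against 4.3%, and 2 (1.83%) for a sex difference varying with age, against 3.23%. The clones behind these counts share filters, spot neighbourhoods and in part a gene, so they are not independent of each other. All named values below failed the adjusted test and are given as values.

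The 95% intervals show what size of change each clone's values leave room for. They are not adjusted over clones and come from fits without the round, so they do not measure what the adjusted test could miss. All 109 slopes had a 95% interval within ±0.3 array SDs per year, and the bound farthest from 0 was 0.278, for Cct6a (spot 10030). The median distance from a value to its bound was 0.0729 per year for the slope, 0.153 for each of the contrasts with mice of 169 to 194 days and 0.108 for sex. For 704 to 743 minus 169 to 194 days, 92 of 109 intervals lay within ±0.3, and for male minus female 104 of 109. The split of the youngest mice was measured least closely: for 33 to 44 minus 17 to 21 days 58 of 109 intervals lay within ±0.3, the median distance was 0.216 and the farthest bound was 1.17, for Dnajb9 (spot 12578). Slopes were above 0 in 59 clones and below 0 in 50, with a median of 0.00534 array SDs per year, against 0.000255 over all clones. Of the 30 genes with several clones, 14 had slopes of 1 sign at all their clones and 16 had both signs.

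**Figure D1:**
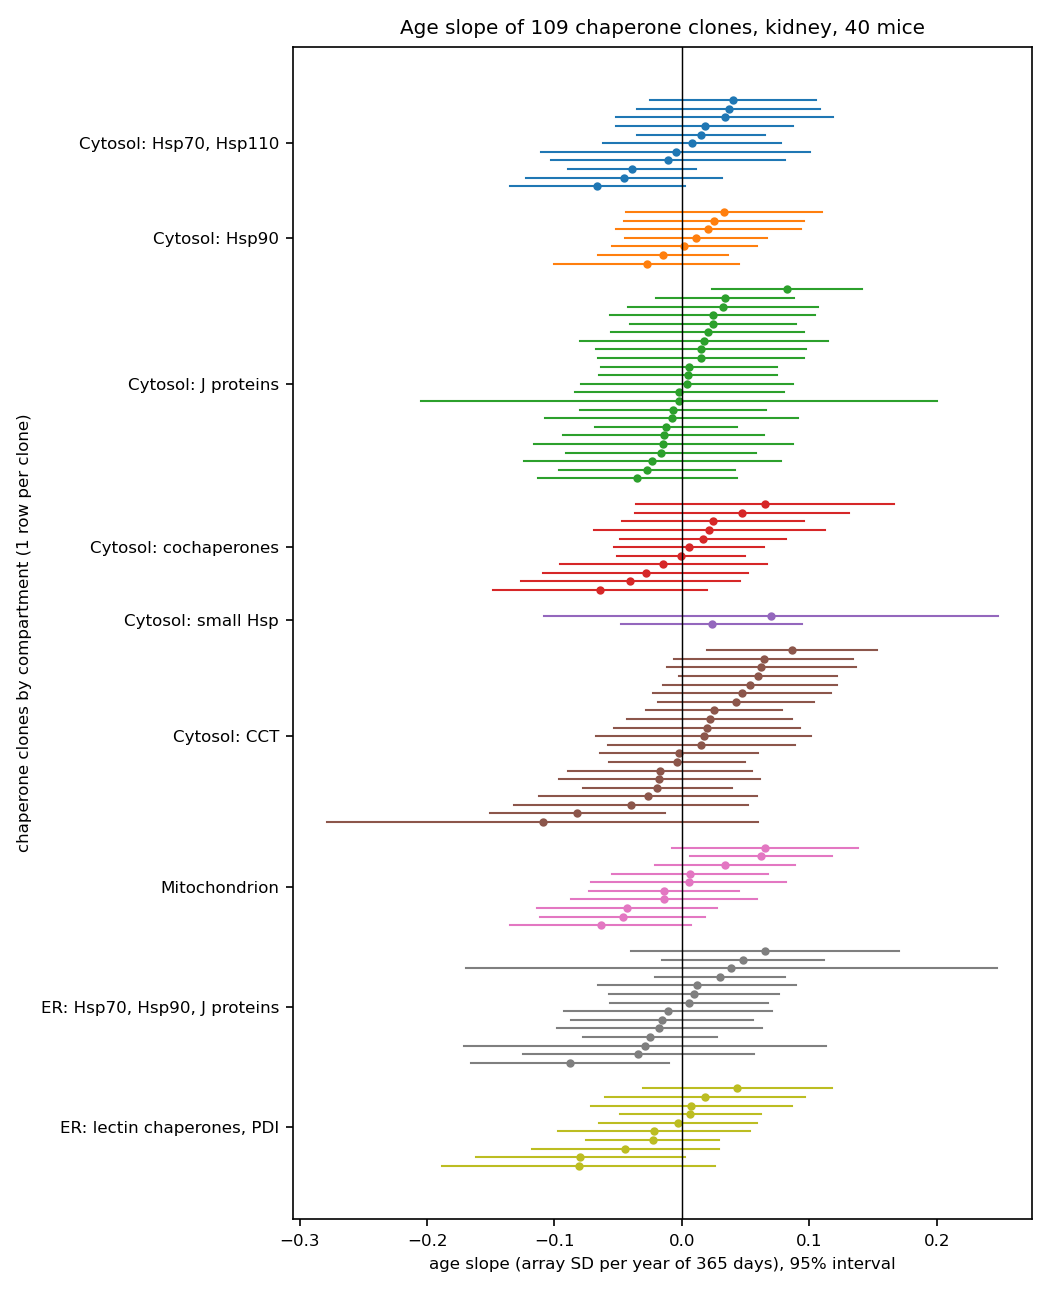
Age slope of each of the 109 chaperone clones (points) with its 95% interval (lines), in array SDs per year, grouped and coloured by compartment. Points lie on both sides of 0 in every group but the small heat shock proteins, where both lie above it, and no interval reaches past 0.278.

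Neighbouring spots moved together whatever gene they carried, and this touches every value below. Over all clones, spots whose numbers differed by 1, 2, 22, 44 or 528 correlated across mice with a median r of 0.441 to 0.637, against -0.0662 to 0.182 for spots 300 or 1500 apart. The median r of a chaperone clone with the median of such neighbours was 0.753, against 0.759 for all clones. This r exceeded 0.5 in 95 of 109 chaperone clones (87.2%), against 87.9% of all clones. For most of the clones described at length, differences are therefore also given after the neighbours' median was subtracted in each mouse, a step added after seeing the data. All 9 chaperone clones at an unadjusted p under 0.05 for 169 to 194 minus 17 to 44 days had neighbours that differed in the same direction, and 1 of the 9 stayed under 0.05 after subtraction. For 704 to 743 minus 169 to 194 days this was 9 of 9 and 5, for the age slope 5 of 5 and 2, and for sex 5 of 5 and 3. Over all 109 chaperone clones, neighbours had the same sign in 81, 83, 86 and 83 for these comparisons in turn. After subtraction 4, 7, 4 and 4 of the 109 had an unadjusted p under 0.05. The counts after subtraction are given without the share of all clones. Subtraction also removes a shared change of real genes that lie side by side, and the cause of the shared movement was not tested.

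**Figure D2:**
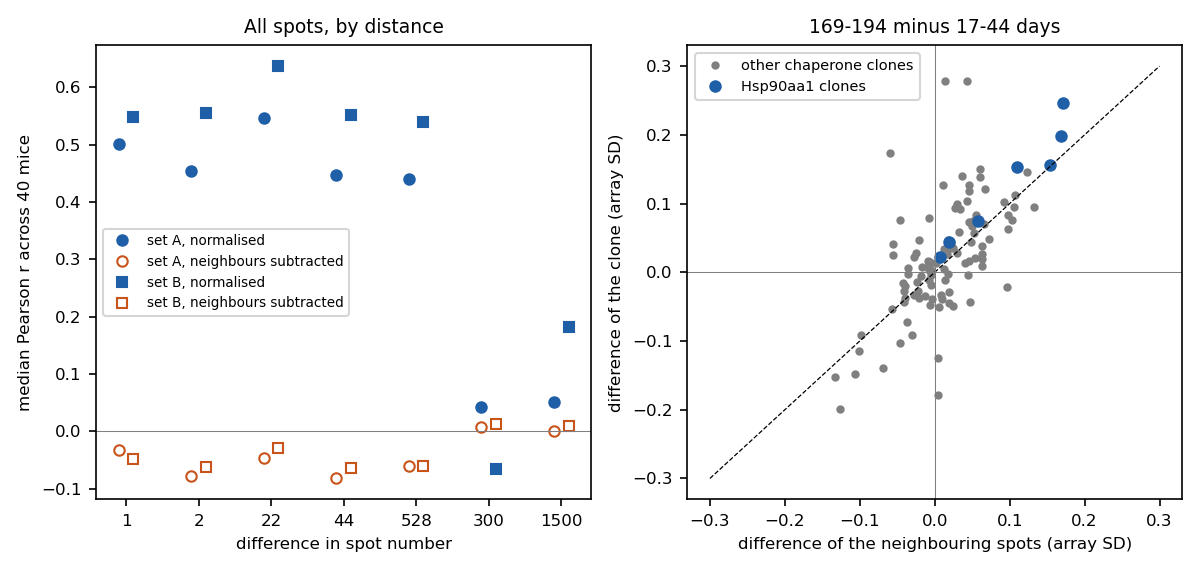
Left, median Pearson r across 40 mice of all pairs of spots at a given difference in spot number, for set A (circles) and set B (squares), before (filled) and after (open) subtraction of neighbours; the filled points lie at 0.441 to 0.637 for 1, 2, 22, 44 and 528, and at -0.0662 to 0.182 for the last positions, 300 and 1500. Right, the difference 169 to 194 minus 17 to 44 days of each chaperone clone against that of its neighbours, in array SDs, with the line of equality dashed; the 7 Hsp90aa1 clones (blue) lie above 0 with their neighbours.

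Hsp90aa1, the inducible cytosolic Hsp90, gave the most uniform pattern. Its 7 clones were all higher at 169 to 194 than at 17 to 44 days, with a median difference of 0.152 array SDs, and 4 of them had an unadjusted p under 0.05. Over all chaperone clones this contrast was above 0 in 69 and below 0 in 40, with a median of 0.0223, against 0.0022 over all clones. At spot 5748 the scores at 17 to 44 days had a lowest value of 0.395, a median of 0.494 and a highest of 0.881. At 169 to 194 days they were 0.547, 0.822 and 1.07, at 476 to 499 days 0.487, 0.746 and 0.968, and at 704 to 743 days 0.587, 0.738 and 0.819. The ranges of all 4 ages overlap, and the youngest mice hold the lowest values. The difference of 169 to 194 minus 17 to 44 days was 0.246 ± 0.0732 (SE, limma adjusted p = 0.933), with the same sign in 10 of 10 couples of one sex and round. Its neighbours differed by 0.171, and 0.0752 was left after subtraction. Counts of couples or rounds, here and below, come from the same values as the differences, mostly at clones named for a small p. They add no independent support, and the share of all clones that reach such counts was not determined. The brightest clone, spot 5704, differed by 0.198 ± 0.0693 (adjusted p = 0.933), its neighbours by 0.168, and 0.0303 was left. Clones 5704, 5748, 5792 and 5814 lie 22 or 44 numbers apart in a row and so share neighbours. The clone on the other filter, spot 12771, differed by 0.0753, and spots 795 and 5814 by 0.0441 and 0.0223 (0.017, 0.0251 and 0.0147 after subtraction).

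At later ages Hsp90aa1 gave values of the other sign, in a contrast that shares the mice of 169 to 194 days with the one above. For 704 to 743 minus 169 to 194 days, 6 of its 7 clones were below 0, with a median of -0.086, and spot 5792 had the largest, -0.192 (-0.0937 after subtraction, chosen for naming after its value was seen). Averaged over its clones, as the deviation from the mean of all mice, the gene stood at -0.0649 ± 0.097 at 17 to 44 days, 0.063 ± 0.0919 at 169 to 194, 0.0251 ± 0.0579 at 476 to 499 and -0.0233 ± 0.073 at 704 to 743 days (SD over 10 mice each). After subtraction of neighbours these averages were -0.0125, 0.0172, -0.00197 and -0.00268. The age slope of the brightest clone was 0.0249 ± 0.035 per year (SE, adjusted p = 0.966), so a straight line over age showed little of either contrast. Between the sexes, spot 12771 scored 0.469 ± 0.119 in the 20 males, against 0.364 ± 0.0938 in the 20 females (SD), a difference of 0.105 ± 0.036 (SE, adjusted p = 0.982) with 0.052 left after subtraction. Over all 7 Hsp90aa1 clones the male minus female difference was above 0 in 4 and below 0 in 3, with a median of 0.00904. The brightest clone, spot 5704, averaged 1.49 in males and 1.54 in females.

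The cytosolic Hsp70 and Hsp110 proteins showed no common direction with age: 6 clones of the 11 had a slope above 0 and 5 below, with a median of 0.00758 per year. Hspa8, the constitutive Hsp70 of the cytosol, had a slope of -0.00495 ± 0.0523 (SE, adjusted p = 0.994) at the clone in the highest brightness percentile of its filter, spot 10066, and of 0.0366 ± 0.0357 (adjusted p = 0.941) at spot 8432, which is nearly as bright on the other filter. Scores at spot 10066 ran from 1.03 over a median of 1.77 to 2.38 at 17 to 44 days and from 1.53 over 1.74 to 1.86 at 704 to 743 days. The oldest mice thus lay inside the range of the youngest at that clone. Hspa4, an Hsp110 protein and exchange factor, had a slope of 0.0403 ± 0.0323 at a clone among the dimmest 25% of the set. Hsph1, also an Hsp110 protein, had -0.0663 ± 0.0342 (adjusted p = 0.937), and its difference of 169 to 194 minus 17 to 44 days was -0.148 ± 0.067 (adjusted p = 0.933), of which -0.0412 was left after subtraction.

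Hspa8 also had the smallest p of a chaperone clone between the sexes. At spot 13741 the scores of 20 males ran from 0.208 over a median of 0.517 to 0.679, against 0.215, 0.365 and 0.523 in 20 females. The ranges overlap, and the highest values are those of males. The means were 0.506 ± 0.127 in males and 0.379 ± 0.0863 in females (SD), and the difference was 0.128 ± 0.038 (SE, adjusted p = 0.651), with the same sign in 17 of 20 couples of one age group and round. Its neighbours differed by only 0.0137, and 0.114 was left after subtraction. The other Hspa8 clones, all in higher brightness percentiles, differed by 0.0612 (spot 6603), -0.0312 (8432) and 0.0513 (10066), with 0.0514, -0.0242 and 0.012 left. Hspa4l (spot 14556), a relative of Hsp70, differed by -0.0937 ± 0.0384 between males and females, with -0.0226 left after subtraction. Hspa12a, another relative, differed by -0.122 ± 0.0529 at spot 10411 (-0.0523 left) and by 0.0398 ± 0.0682 at its other clone, spot 16339, which is among the dimmest 25% (SE, adjusted p = 0.982 for all 3 clones).

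The J proteins of the cytosol and nucleus, which deliver substrates to Hsp70, had slopes above 0 in 12 of 23 clones and below 0 in 11. Dnaja2 (spot 4491) had the smallest p of a slope among all chaperone clones, 0.0822 ± 0.0293 per year (SE, adjusted p = 0.937), with the same sign in 5 of 5 rounds and 0.0379 left after subtraction. Its lowest, median and highest scores were -0.636, -0.472 and -0.239 at 17 to 44 days, -0.843, -0.408 and -0.348 at 169 to 194, -0.736, -0.446 and -0.184 at 476 to 499 and -0.415, -0.294 and -0.194 at 704 to 743 days. The oldest mice lack the low values found at the younger ages. For 704 to 743 minus 169 to 194 days the difference was 0.15 ± 0.0573 (adjusted p = 1, 9 of 10 couples), of which 0.106 was left after subtraction. This clone also had the smallest spread among mice of one group relative to its set, in percentile 1.62.

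Dnajb1, the heat-inducible partner of Hsp70, had its lowest mean at spot 5489 in mice of 169 to 194 days. The score was -0.175 ± 0.143 at 17 to 44, -0.374 ± 0.202 at 169 to 194, -0.195 ± 0.223 at 476 to 499 and -0.207 ± 0.109 at 704 to 743 days (SD over 10 mice each). The contrasts were -0.199 for 169 to 194 minus 17 to 44 days, 0.179 for 476 to 499 minus 169 to 194 days and 0.167 for 704 to 743 minus 169 to 194 days, none past the test, and they share the mice of 169 to 194 days. After subtraction they were -0.0716, 0.0873 and 0.0396, and without 1 male of 169 to 194 days, replicate 5, the last was 0.117. The other and brighter clone of Dnajb1, spot 5618, had a slope of 0.00544 ± 0.0342 (adjusted p = 0.992), and the pair of clones correlated at -0.0219 across mice. Dnaja1, another Hsp70 partner, had a slope of 0.0174 ± 0.0484 (adjusted p = 0.981) at its brightest clone. Dnajb6, a suppressor of aggregation, had male minus female differences of both signs. At spot 7822, among the dimmest 25%, the difference was 0.154 ± 0.0766 (11 of 20 couples, 0.112 left after subtraction), and at the brighter spot 222 it was -0.0417 ± 0.052 (-0.00176 left; SE, adjusted p = 0.982 for both).

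The cochaperones had slopes above 0 in 6 of 11 clones and below 0 in 5. The Hsp70-Hsp90 organiser Stip1 had a slope of 0.0472 ± 0.0416, the Hsp70-interacting protein St13 of 0.0168 ± 0.0323, and the exchange factors Bag1 and Bag3 of -0.0148 ± 0.0403 and -0.0641 ± 0.0416 (SE, adjusted p from 0.937 to 0.981). In the cochaperone contrast of 704 to 743 minus 169 to 194 days, Bag6 (spot 1432), a chaperone of tail-anchored membrane proteins, had the one unadjusted p under 0.05, at -0.158 ± 0.0772, with -0.103 left after subtraction (chosen for naming after its value was seen).

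Of the small heat shock proteins, which hold unfolded proteins without ATP, Hspb1 (spot 3035) spread widely among mice. Its lowest, median and highest scores were -1.15, -0.656 and 0.13 at 17 to 44 days, -1.23, -0.773 and -0.138 at 169 to 194, -1.2, -0.786 and -0.633 at 476 to 499 and -0.87, -0.525 and 1.28 at 704 to 743 days. The value of 1.28 is 1 female, replicate 5, and the other 4 females of that age lay between -0.775 and -0.228. The difference of 704 to 743 minus 169 to 194 days was 0.357 ± 0.174 (SE, adjusted p = 1) with that mouse and 0.177 without it, with the same sign in 5 of 10 couples. After subtraction 0.29 was left with all mice. For 33 to 44 minus 17 to 21 days this clone differed by -0.407 ± 0.242 (adjusted p = 0.998), with -0.303 left.

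The chaperonin CCT folds actin and tubulin in rings of 8 different subunits, all of which had clones. Slopes were above 0 in 12 of 21 clones and below 0 in 9, with a median of 0.017 per year. At the brightest clone of each subunit, the slopes were 0.0472 for Tcp1, 0.0253 for Cct2, 0.0537 for Cct3, -0.0172 for Cct4, 0.0641 for Cct5, -0.109 for Cct6a, -0.0179 for Cct7 and -0.00234 for Cct8, with SEs of 0.0264 to 0.0839. For 169 to 194 minus 17 to 44 days, 16 of 21 clones were above 0 (median 0.0409), and for 704 to 743 minus 169 to 194 days 10 were above and 11 below. Subunits of the same ring thus had slopes of both signs, none of them past the test.

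Cct4 (spot 5793) was the 1 CCT clone with an unadjusted p under 0.05 for 704 to 743 minus 169 to 194 days. Its lowest, median and highest scores were -0.806, -0.514 and -0.308 at 704 to 743 days, against -0.574, -0.315 and -0.152 at 169 to 194 days, ranges that overlap. The difference was -0.224 ± 0.068 (SE, adjusted p = 1, 9 of 10 couples), and -0.125 was left after subtraction. Its age slope was -0.082 ± 0.0341 per year (adjusted p = 0.937), the smallest p of a negative chaperone slope, with -0.0437 left. Brighter and other-filter clones of Cct4 differed in the oldest mice by 0.0271 (spot 6369) and 0.00789 (spot 15876). For 476 to 499 minus 169 to 194 days, Cct3 (spot 6496) differed by 0.155 ± 0.0707 and Cct5 (spot 5572) by 0.124 ± 0.0662 (adjusted p = 1 for both), with 0.0241 and 0.0584 left. Cct3 (spot 6540) had a slope of 0.0864 ± 0.033 (adjusted p = 0.937), of which 0.0267 was left after subtraction, and Cct7 (spot 11688) scored 0.846 ± 0.162 (SD, n = 5) in mice of 33 to 44 days, against 0.54 ± 0.145 (SD, n = 5) in those of 17 to 21 days. That difference, 0.309 ± 0.109 in the fit (SE, adjusted p = 0.998), had 0.108 left after subtraction. The other Cct7 clones had lower means at 33 to 44 than at 17 to 21 days. These were -0.723 against -0.572 (spot 1392), -0.00167 against 0.0236 (spot 3461) and -0.499 against -0.475 (spot 3505).

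In the mitochondrion, slopes were above 0 in 5 of 10 clones and below 0 in 5. The bright clones of Hspd1 went opposite ways: the slope was -0.0638 ± 0.0354 per year at spot 4692 and 0.0621 ± 0.0275 at spot 4758 (SE, adjusted p = 0.937 for both), with -0.0858 and 0.0413 left after subtraction, and the clones correlated at -0.2 across mice. At spot 4692 the lowest, median and highest scores were 1.02, 1.44 and 1.55 at 704 to 743 days, against 1.37, 1.56 and 1.91 at 169 to 194 days. That difference was -0.19 ± 0.0683 (adjusted p = 1), with the same sign in 10 of 10 couples and -0.126 left after subtraction. Averaged over its clones, the slope of Hspd1 was -0.00531. Hspe1 had a slope of 0.00535 ± 0.038, Hspa9, the mitochondrial Hsp70, of 0.0337 ± 0.0272, and its J protein Dnaja3 of -0.0465 ± 0.0321. At Dnaja3 spot 3715 the difference of 169 to 194 minus 17 to 44 days was -0.153 ± 0.0668 (adjusted p = 0.933), with -0.02 left after subtraction. Dnajc11 (spot 1946), a protein of the mitochondrial outer membrane, scored -0.647 ± 0.174 in the 20 males, against -0.493 ± 0.145 in the 20 females (SD). It differed by -0.154 ± 0.0537 (SE, adjusted p = 0.982, 16 of 20 couples), with -0.0995 left after subtraction. The other Dnajc11 clone, spot 5526, is among the dimmest 25% and did not show this difference. It scored -1.09 ± 0.118 in males and -1.1 ± 0.129 in females (SD), and the pair of clones correlated at -0.0463.

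In the endoplasmic reticulum, Hspa5 (BiP), its Hsp70, had a negative difference of 704 to 743 minus 169 to 194 days at all 3 of its clones. At spot 5787 the lowest, median and highest scores were -0.346, 0.0111 and 0.228 at 704 to 743 days, against -0.099, 0.244 and 0.415 at 169 to 194 days. The ranges overlap over most of their length. The difference was -0.233 ± 0.0805 (SE, adjusted p = 1, 8 of 10 couples), and -0.173 was left after subtraction. The age slope there was -0.0876 ± 0.0385 per year (adjusted p = 0.937), next after Cct4 among negative chaperone slopes by its p, with -0.0688 left. In the oldest mice the brightest clone, spot 15766, differed by -0.0855 ± 0.0857 and spot 6652 by -0.0381 ± 0.0847, with -0.0484 and -0.07 left. Slopes of the brightest clones were -0.0177 ± 0.0399 for Hspa5, 0.0115 ± 0.0385 for Hsp90b1 (the Hsp90 of this compartment), 0.0651 ± 0.0521 for Dnajb11, 0.00527 ± 0.0308 for Dnajb9 and -0.0342 ± 0.0451 for Dnajc3, the last 3 being J proteins of BiP.

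Calnexin (Canx, spot 1055) had the smallest p of a chaperone clone for the oldest mice and for any difference among the ages, but it is a dim clone, in brightness percentile 5.93. Its lowest, median and highest scores were -2, -1.42 and -1.06 at 17 to 44 days, -1.54, -1.21 and -0.61 at 169 to 194, -1.73, -1.43 and -1.08 at 476 to 499 and -1.68, -1.52 and -1.36 at 704 to 743 days. Mice of 169 to 194 days reach the highest values, and the other ages overlap with them. For 704 to 743 minus 169 to 194 days it differed by -0.337 ± 0.0994 (SE, adjusted p = 1, 9 of 10 couples), of which -0.192 was left after subtraction. For 169 to 194 minus 17 to 44 days it differed by 0.278 ± 0.0994 (adjusted p = 0.933), with 0.235 left, and for 476 to 499 minus 169 to 194 days by -0.23 ± 0.0994 (adjusted p = 1), with -0.0455 left. The brighter Canx clones differed by -0.0664 ± 0.0772 (spot 2842) and 0.0291 ± 0.0851 (spot 6911) in the oldest mice (-0.0424 and 0.0218 left), and the 3 clones correlated with each other at -0.0836 to 0.236. Calreticulin (Calr) had a slope of 0.0434 ± 0.0368, and the disulfide isomerases Pdia3, Pdia4 and Pdia6 of -0.00285 ± 0.0307, -0.0219 ± 0.0375 and 0.0065 ± 0.0275 per year, none past the test. Pdia5 (spot 8824) had -0.0798 ± 0.0406 (adjusted p = 0.937), with -0.0404 left after subtraction.

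**Figure D3:**
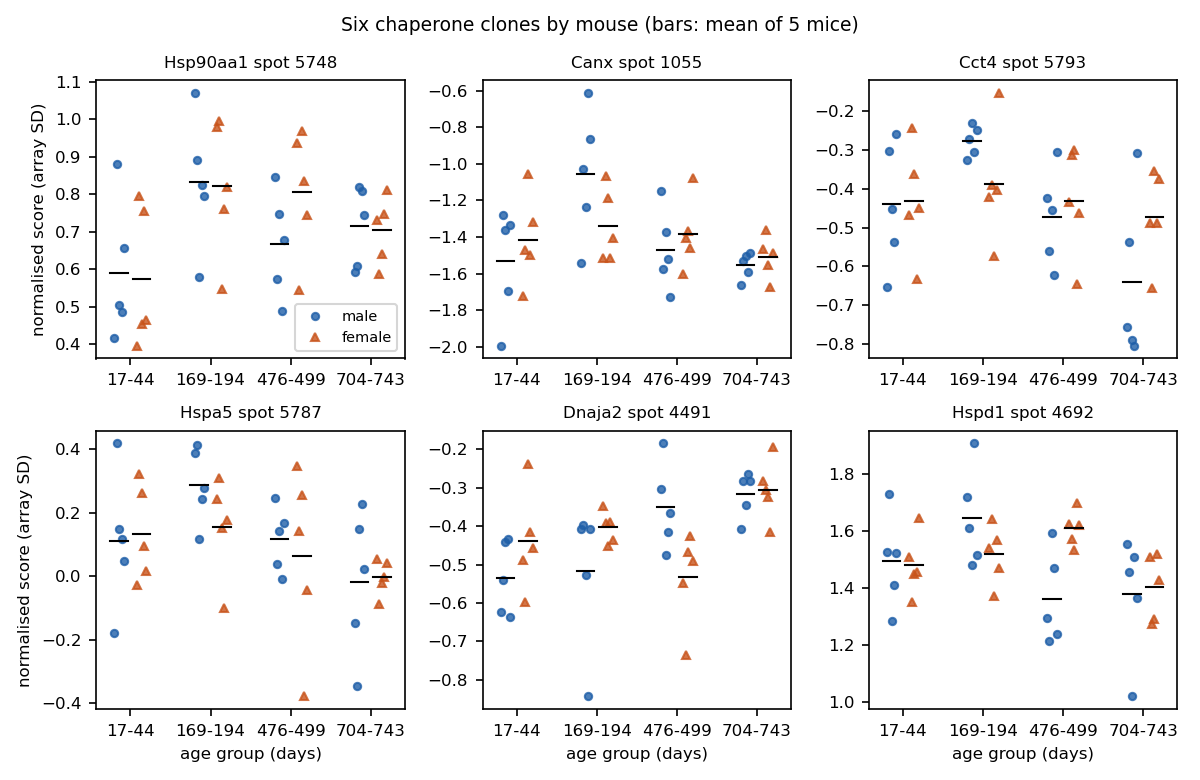
Normalised scores (array SDs) of 6 chaperone clones in every mouse, by age group, males as blue circles left of females as orange triangles; black bars are means of 5 mice. In the Canx panel the males of 169 to 194 days average -1.05 and all other groups lie at -1.34 or below, and the ranges of the ages overlap in each panel.

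Between mice of 33 to 44 and of 17 to 21 days, 4 chaperone clones had an unadjusted p under 0.05: the Cct7 clone given above, Hsp90aa1 (spot 5814), Dnajc3 (spot 1580) and Pdia6 (spot 15434), the last 2 among the dimmest 25%. This split is partly confounded with round: both youngest mice of round 3 were of 17 to 21 days and both of round 5 of 33 to 44 days. The males of 43 days in round 1 and of 40 days in round 5 had outlying arrays. Without the male of round 5 the Cct7 difference was 0.242. Hsp90aa1 (spot 5814) scored 0.744 ± 0.0908 in mice of 33 to 44 days, against 0.562 ± 0.0998 in those of 17 to 21 days (SD, n = 5 each), and the fitted difference was 0.181 ± 0.0791 (SE, adjusted p = 0.998) with 0.0485 left after subtraction. Dnajb9 (spot 12578), in brightness percentile 1.28, scored -4.13, -2.78 and -1.64 as lowest, median and highest at 33 to 44 days, against -2.59, -2.33 and -2.1 at 17 to 21 days, a fitted difference of -0.582 ± 0.293 (SE, adjusted p = 0.998). Its spread was the largest of the 109 clones (SD among mice of one sex and age 0.529, percentile 99.6), and its other clone, spot 2242, had an SD of 0.14. Dnajc3 (spot 1580) scored -1.18 ± 0.0696 in mice of 33 to 44 days, against -1.42 ± 0.164 in those of 17 to 21 days (SD, 5 mice each). The fitted difference was 0.257 ± 0.0945 (SE, adjusted p = 0.998), with 0.166 left after subtraction. For 476 to 499 minus 169 to 194 days that clone differed by -0.16 ± 0.0732 (adjusted p = 1), with -0.0304 left. Pdia6 (spot 15434) scored -0.734 ± 0.072 and -0.56 ± 0.0484, all 5 of the older mice below all 5 of the younger. The fitted difference was -0.181 ± 0.0734 (adjusted p = 0.998) with -0.0725 left after subtraction. The other Pdia6 clone, spot 16095, overlapped, from -1.08 to -0.576 in the older mice and -0.714 to -0.596 in the younger. Cct7 (spot 11688) and Dnajb9 (spot 2242) also separated fully, with the older mice higher. The share of all clones that separate this way was not counted. The next largest spreads were those of Dnajc2 (spot 1157, 0.521), Cct6a (spot 10030, 0.437), Hspb1 (0.422) and Dnajc25 (spot 1957, 0.362). Relative to their set, Dnaja2 (4491), Hspd1 (4758) and the Hsp90aa1 clones 12771, 5814 and 795 spread least. The median SD over chaperone clones was 0.166, against 0.175 over all clones.

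Age slopes were also compared between the sexes. Dnajc3 (spot 10694), in the cell an inhibitor of eIF2α kinases as well as a BiP partner, had a male minus female slope of -0.178 ± 0.087 per year (SE, adjusted p = 0.974), and its neighbours differed by -0.158, so that -0.0198 was left. Hspa5 (spot 6652) followed with -0.157 ± 0.0784, with -0.142 left after subtraction, and Dnaja2 (spot 4491) had the smallest p among positive values, 0.0902 ± 0.0578 (adjusted p = 0.974 for both), with 0.00361 left. Next by p came Cct2 (spot 16088) with 0.081 ± 0.052 and Cct3 (spot 74) with 0.126 ± 0.0902 among positive values, and Hsp90aa1 (spot 12771) with -0.0965 ± 0.0488 among negative ones, of which 0.0174, 0.069 and 0.00315 were left. Males of 704 to 743 days scored -0.316 ± 0.059 at the Dnaja2 clone and females of that age -0.305 ± 0.0797 (SD, n = 5 each). For a sex difference varying with age, the smallest p belonged to Dnajc30, Pdia3 (spot 8781) and Dnaja2 (adjusted p = 1 for all).

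Averaging the genes of each group in each mouse gave small deviations at every age. Over all 60 genes the mean deviation was -0.00838 ± 0.0255 at 17 to 44 days, 0.00562 ± 0.0307 at 169 to 194, 0.00332 ± 0.032 at 476 to 499 and -0.000561 ± 0.0274 at 704 to 743 days (SD over 10 mice each). The 20 males averaged 0.00245 ± 0.0302 and the 20 females -0.00245 ± 0.027 (SD). CCT stood at -0.0216 ± 0.0437, 0.0206 ± 0.0661, 0.025 ± 0.0794 and -0.024 ± 0.0462 over the 4 ages, and the lectin chaperones and disulfide isomerases at -0.00886 ± 0.0491, 0.0281 ± 0.0824, 0.00138 ± 0.0816 and -0.0206 ± 0.0575. Each of these deviations is smaller than its SD among single mice, which is not the uncertainty of a mean over 10 or 20 mice. No test of these averages is given.

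**Figure D4:**
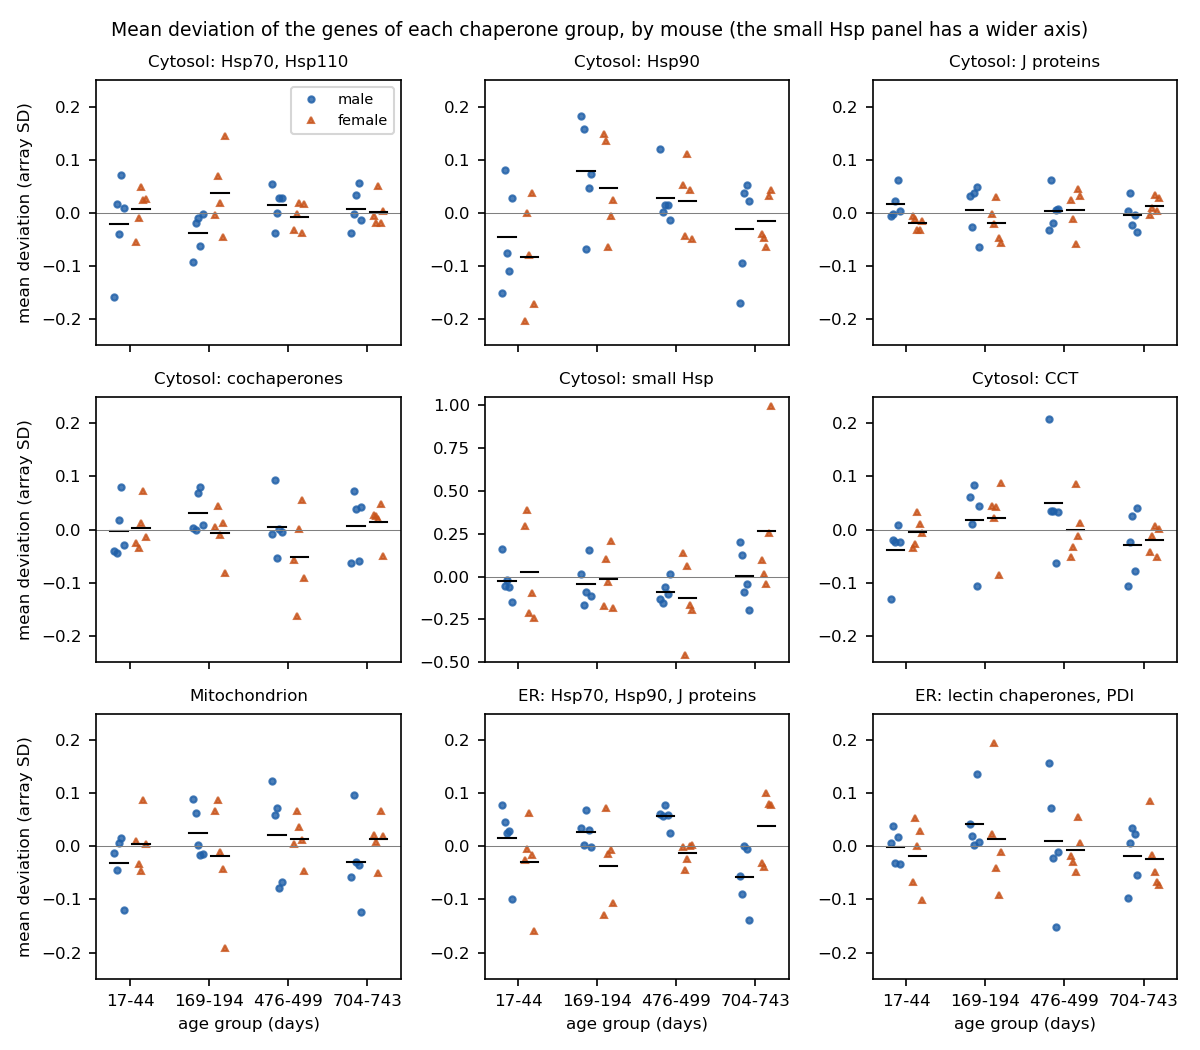
Mean deviation of the genes of each of the 9 chaperone groups from their means over all mice (array SDs), 1 point per mouse, by age group, males as blue circles left of females as orange triangles; black bars are means of 5 mice. Hsp90 averages 0.063 at 169 to 194 days and -0.0649 at 17 to 44 days with overlapping mice, and in the small heat shock panel, which has a wider axis, 1 old female stands at 0.998.

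Genes whose promoters share an element had age slopes of both signs (a grouping added after seeing the data). The 8 clones of the 4 genes with a 3-unit heat shock element had slopes above 0 in 2 and below 0 in 6, with a median of -0.0211 per year, and the 22 clones of the 13 genes with a 2-unit element above 0 in 13 and below 0 in 9, with a median of 0.0114. The 13 clones of the 6 genes with an ER stress element had slopes above 0 in 6 and below 0 in 7, with a median of -0.0106 per year. They were above 0 in 10 of 13 for 169 to 194 minus 17 to 44 days and below 0 in 9 of 13 for 704 to 743 minus 169 to 194 days, with medians of 0.0285 and -0.0176. The clones with a 3-unit heat shock element were above 0 in 6 for the first of these contrasts and below 0 in 6 for the second, with medians of 0.0353 and -0.0642. Both contrasts share the mice of 169 to 194 days. Related proteostasis genes outside the families (58 clones, among them prefoldin subunits, proteases and unfolded protein response factors) gave 0 clones past the test in any comparison, and few clones at an unadjusted p under 0.05. These were 1 clone (1.72%) for the age slope, against 5.2% of all clones, 4 (6.9%) for 33 to 44 minus 17 to 21 days, against 4.3%, and 3 (5.17%) for 169 to 194 minus 17 to 44 days, against 5.08%. They were 0 (0%) for 476 to 499 minus 169 to 194 days, against 1.23%, 1 (1.72%) for 704 to 743 minus 169 to 194 days, against 2.36%, and 3 (5.17%) for any difference among the 4 ages, against 3.39%. Between the sexes there were 3 (5.17%), against 4.48%, in the slope difference 1 (1.72%), against 4.3%, and for a sex difference varying with age 0 (0%), against 3.23%. The smallest p was that of Pfdn5 (spot 11700), a prefoldin subunit that passes substrates to CCT, which differed by 0.5 ± 0.115 for 33 to 44 minus 17 to 21 days (SE, adjusted p = 0.998). Derl1 (spot 1105), of the export channel for misfolded proteins, had a slope of -0.152 ± 0.0527 per year (adjusted p = 0.937). The values of these related genes are given without subtraction.

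Clones of one chaperone gene agreed little across mice once sex and age were removed. The 28 pairs on different filters had a median r of 0.0586, the 46 pairs at other spots of one filter 0.168, and the 9 pairs on neighbouring spots 0.492, against 0.00253, 0.0298 and 0.597 for pairs of clones of one gene over all genes. After subtraction of neighbours the chaperone medians were 0.0882, 0.0606 and 0.0242. The Hspa8 clones 10066 and 13741, on one filter, correlated at -0.0551, and the Dnaja1 clones 3041 and 8884, on different filters, at -0.349. These values are descriptions over 40 mice.

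Partner genes were compared across mice at their brightest clones in 15 pairs, on residuals after sex and age means (two-sided permutation tests with 100000 resamples, adjusted over the 15 pairs). Another 4 planned pairs lacked a clone. Round means were not removed for these tests, and residuals of mice of one round were correlated. The permutation p values may therefore be too small. Hspa8 (spot 10066) and its J protein partner Dnaja1 (spot 8884) correlated at r = 0.832 (rho = 0.873, adjusted permutation p = 0.00015 for both, from the smallest p the resamples can give, 1e-05). Without the 2 mice farthest from the median of Hspa8, r was 0.898. Within rounds 1 to 5 it was 0.709, 0.941, 0.316, 0.731 and -0.0279 (8 mice each), and with round means removed 0.6, so part of the pooled value lies between rounds and 1 round shows none of it. After subtraction of neighbours r was 0.777. Of 16895 other clones, 103 (0.61%) were at least as correlated with this Hspa8 clone, and 293 (1.73%) with the Dnaja1 clone. Averaged over all clones of each gene, r was 0.289.

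**Figure D5:**
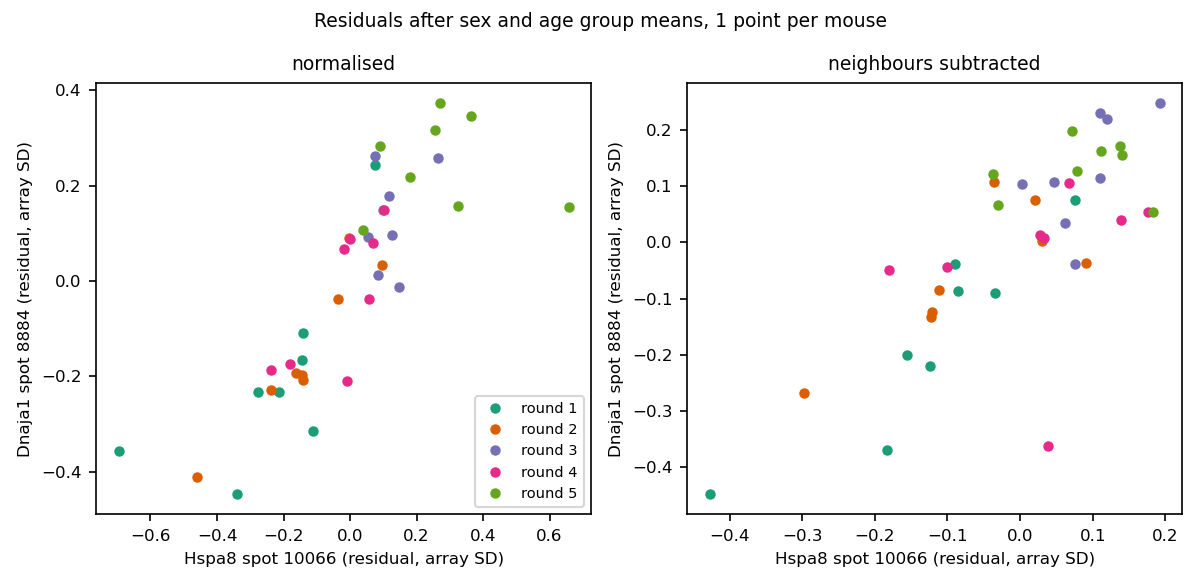
Residual score (array SDs) of Dnaja1 (spot 8884) against that of Hspa8 (spot 10066) after sex and age group means were removed, 1 point per mouse, coloured by round, as normalised (left, r = 0.832) and after subtraction of neighbours (right, r = 0.777). Rounds 1 and 2 reach the low end, and within round 5 the points show no slope (r = -0.0279).

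The other pairs were weaker. Hspa5 and Hsp90b1, which both carry the ER stress element shown above, correlated at r = -0.412 (rho = -0.488, adjusted permutation p = 0.0444 and 0.0114), with r = -0.511 without the 2 farthest mice. Within the 5 rounds r was -0.444, -0.419, -0.275, 0.00056 and -0.622, with round means removed it was -0.344, and after subtraction of neighbours it was -0.326 (adjusted permutation p = 0.161). Averaged over all clones of each gene, r was -0.161. At least as strong a correlation was found for 12.6% of other clones with the Hspa5 clone and 4.11% with the Hsp90b1 clone. Cct7 and Cct8, subunits of one ring, correlated at -0.437 (rho = -0.364, adjusted permutation p = 0.0353 and 0.0821; -0.364 without the 2 farthest mice). Within rounds that r was -0.83, 0.227, -0.655, -0.417 and -0.497, after subtraction it was 0.143, and 14.8% of other clones reached the main value with the Cct7 clone and 5.92% with the Cct8 clone. Tcp1 and Cct2 correlated at 0.376 (adjusted permutation p = 0.0638), and Hspd1 and Hspe1, with their shared promoter region, at 0.18 (adjusted permutation p = 0.495). Over the remaining 10 pairs r ran from -0.232 for Calr and Canx to 0.236 for Hspa5 and Calr, with none under an adjusted p of 0.05.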

How the data were processed

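Kidney RNA of 40 mice was measured on 80 filter arrays, 2 per mouse (sets A and B, 8448 clones each). Per the labels' protocols, tissue was broken up with glass beads, its total RNA purified with silica columns and copied into cDNA carrying radioactive phosphorus. The deposited values are scores: each column had mean 0 and SD 1. How images were read and background was removed, and whether a log was taken before the z transformation, is unknown here. Of the columns of values, 0 were left out. Each group had 5 separate mice, and precision is limited by how many arrays there are.

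Each set was quantile normalised and fitted across all its clones with limma 3.58.1 in R 4.3.3 (lmFit, eBayes), with Benjamini-Hochberg adjustment over both sets. Slopes were fitted per year of 365 days with sex, the 33 to 44 minus 17 to 21 day contrast with sex and age bins, and the others from 8 sex and age means. All 40 mice entered each fit. A gene with several clones is given at its clone in the highest brightness percentile of its set where one value is named. Group deviations average the clones of a gene and then the genes. Named clones are, per comparison, those called, or else the 3 of smallest p in each direction (the 3 of smallest p for an F test), a set of well-known members of each compartment at their brightest clone, and the 5 of largest and of smallest spread; exceptions are marked. The fits were tested on simulated data.

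Members, lists, pairs and the naming rule were chosen with earlier results of these data known. Added after seeing the data were the motif grouping, the share of all clones as correlated as a partner, and the subtraction of neighbours: from each clone the median deviation, per mouse, of spots 1, 2, 22, 44 and 528 numbers away, same-gene spots left out. An earlier definition with nearer spots had been tried first and its call counts seen. The alternatives were the round as a block, values as deposited, median centring, array weights, left-out dim clones, outlying arrays (8 mice), mice of 17 to 21 days or single mice, gene averages, and the subtraction. Symbols came from the platform annotation, promoters from RefSeq. No clone coordinates or protein sequences were used here.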

Additional observations from a re-analysis of the deposited data

Results flagged for a closer look

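Within groups of 5 mice, 18 of 344 groups examined for the named clones and group averages held 1 mouse whose gap to the nearest of the others was over 0.71 of the group's range (Dixon's criterion). Chance flags about 1 in 20 groups, so this number is near what chance gives. Causes were not tested.

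Among group averages (mean deviation, array SDs), female 704 to 743 days replicate 5 stood at -0.05 for the cochaperones, against 0.02 to 0.047 in the other 4, and at 0.998 for the small heat shock proteins, against -0.043 to 0.257. The small heat shock average rests on 2 clones, and the same mouse scored 1.28 at Hspb1 (spot 3035), against -0.775 to -0.228. Male 476 to 499 days replicate 1 stood at 0.121 for Hsp90aa1, against -0.014 to 0.015, and male 17 to 44 days replicate 1 at -0.131 for CCT, against -0.024 to 0.009.

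Among single clones of the cytosol, Hsp90aa1 spot 5814 scored 0.513 in male 476 to 499 days replicate 2, against 0.703 to 0.772 in the others, and spot 12771 scored 0.748 in male 17 to 44 days replicate 5, against 0.381 to 0.408. Hspa8 spot 13741 scored 0.208 in male 169 to 194 days replicate 5, against 0.512 to 0.63. Dnajb1 spot 5489 scored -0.707 in the same mouse, against -0.243 to -0.16. Hspa4l spot 14556 scored -0.427 in male 476 to 499 days replicate 3, against -0.098 to 0.002.

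Among CCT clones, Cct2 spot 16088 scored 0.576 in male 476 to 499 days replicate 5, against 0.893 to 0.941, and 0.922 in female 17 to 44 days replicate 4, against 0.756 to 0.799. Cct3 spot 74 scored -0.308 in male 704 to 743 days replicate 5, against -0.902 to -0.746, and -0.999 in female 17 to 44 days replicate 1, against -0.653 to -0.551. Cct5 spot 5572 scored -0.148 in female 704 to 743 days replicate 2, against 0.218 to 0.343.

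In the mitochondrion, Hspd1 spot 4758 scored 1.064 in male 476 to 499 days replicate 2, against 1.265 to 1.341, and Dnajc11 spot 1946 scored -0.959 in female 704 to 743 days replicate 2, against -0.479 to -0.342. In the endoplasmic reticulum, Pdia6 spot 15434 scored -0.975 in female 476 to 499 days replicate 5, against -0.714 to -0.621.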

How the results depend on the processing

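The count of chaperone clones past the adjusted threshold stayed at 0 in all 107 planned and added alternatives and in all 360 fits that left out 1 mouse (lowest 0, highest 0). With the round as a replicate block it was 0 in each comparison. Rounds share 1 mouse of each sex and age, but no label says what a round stands for. The lowest adjusted p of a named clone over its alternatives was 0.13, for Hspa8 spot 13741 between the sexes without male 169 to 194 days replicate 5. Over all clones, 18 passed between the sexes as reported, 11 without the mice of 17 to 21 days, 34 after subtraction of neighbours (43 with the round block) and 37 under its first definition (45 with the block). Of 487 values of 42 named differences and slopes under alternatives other than left-out mice, 8 changed sign, and 0 of 1680 with a mouse left out did. With gene averages the slope of Hspd1 (4758) was -0.00531 and the slope difference of Dnaja2 (4491) -0.00564. After subtraction the slope difference of Hsp90aa1 (12771) was 0.00315 (0.00273 with the block), and 0.0191 under the first definition (0.019 with the block), under which that of Dnajc3 (10694) was 0.00865 (0.00845). Partner correlations changed sign in 8 of 15 pairs. With gene means r was 0.161 for Calr and Canx, 0.105 for Hspa8 and St13, -0.0916 for Cct2 and Cct3, 0.064 for Cct7 and Cct8 and -0.0605 for Hspa9 and Hspd1. With round means removed it was 0.149 for Hspa5 and Pdia4, 0.0949 for Hspa8 and St13, -0.0512 for Hspa8 and Hsph1, -0.109 for Cct2 and Cct3 and -0.148 for Hspa9 and Hspd1. After subtraction it was -0.0516 for Hspa5 and Pdia6, 0.385 for Hspa5 and Pdia4, -0.396 for Hspa8 and Hsph1, 0.143 for Cct7 and Cct8 and -0.194 for Hspa9 and Hspd1. As deposited it was -0.0146 for Hspa5 and Pdia6, and without outlying arrays 0.132 for Hspa5 and Pdia4. The causes were not tested. Of the 109 clones, 21 lie in the dimmest 25% of their set, where the scores give no level above background.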
